A study of Homo sapiens with 2 samples.

Results

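The 10 genes described here are CCN1, a secreted matrix protein, together with components of the Hippo pathway and transcriptional targets of its effector YAP. They are CCN1, CCN2, AMOTL1, AMOTL2, LATS2, SAV1, AJUBA, CRIM1, AXL and ANKRD1. The genes were chosen by the intensity difference between these arrays, alongside their known roles, so their values are given as a description and carry no test. All 10 were found by gene symbol in the probe annotation, on 14 of the 30113 probes that carry 1 gene symbol, out of 20046 named genes in all.

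The arrays came from 2 human cultures, HCT-8 and HCT-8/V, with 1 array each. HCT-8 is an established line from a human colon cancer. The culture called HCT-8/V is labelled as its form resistant to vincristine, a drug that blocks microtubule assembly. Both cultures are labelled as having received pcDNA3.1-Twist, a plasmid carrying the transcription factor gene Twist, 48 h before RNA was taken, and a culture without the plasmid was not analysed here. The labels do not say whether either was meant as an untreated control, in which case every difference below would include the effect of the plasmid. As labelled, the line is the only difference, and line, culture and array cannot be told apart. Whether the resistant line is 1 clone or a pool is not given in the labels.

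The Hippo pathway is a kinase cascade that restrains cell growth. The kinases STK3 and STK4, held by the scaffold SAV1, activate the kinases LATS1 and LATS2, which phosphorylate YAP (gene YAP1) and its relative TAZ (gene WWTR1) and keep them out of the nucleus. When the cascade is quiet, YAP and TAZ bind the TEAD transcription factors and switch on genes that include CCN1, CCN2, ANKRD1, CRIM1 and AXL. LATS2 and AMOTL2 are targets as well as inhibitors of YAP, a known feedback loop. In the intestine YAP is best known for its part in regeneration after injury and in tumour growth.

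TEAD factors recognise the letters GGAATG, and the promoter sequences below are shown because that motif is the textbook link between these targets and YAP. RefSeq promoter windows of assembly GRCh38.p14, 250 bases before to 50 bases after each annotated start, were matched by symbol for 8 of the 10 genes, in 11 windows. No window was matched for CCN1 and CRIM1, so their promoters were not searched. GGAATG was searched on both strands, and 6 of the 11 windows, of 6 different genes, had a match, against 14.0% of all 35116 windows in the table. CCN2 had 3 matches, a number reached by 0.128% of all windows, and ANKRD1 had 2, which 1.37% of all windows had or exceeded. The genes were chosen partly as known YAP targets, so nothing is read from the contrast with all windows. The 250 bases before the starts of CCN2 (chr6:131951373-131951622, minus strand) and ANKRD1 (chr10:90921088-90921337, minus strand) are printed 5′ to 3′ with GGAATG in capitals.

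CCN2: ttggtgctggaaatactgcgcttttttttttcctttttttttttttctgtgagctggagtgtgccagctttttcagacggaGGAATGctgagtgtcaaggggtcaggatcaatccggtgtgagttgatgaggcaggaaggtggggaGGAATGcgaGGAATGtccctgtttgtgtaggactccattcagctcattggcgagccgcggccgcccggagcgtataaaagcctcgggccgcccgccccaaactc

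ANKRD1: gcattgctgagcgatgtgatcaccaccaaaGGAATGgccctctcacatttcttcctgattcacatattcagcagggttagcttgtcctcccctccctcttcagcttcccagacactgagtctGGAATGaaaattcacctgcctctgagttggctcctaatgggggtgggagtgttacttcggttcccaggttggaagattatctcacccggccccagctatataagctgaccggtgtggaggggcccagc

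In CCN2 the matches began 169, 104 and 95 bases before the start, the last 2 of them 9 bases apart, and in ANKRD1 they began 220 and 128 bases before it. The other 4 genes with a match had 1 each, shown as 30 bases around it, with the match in capitals and CATTCC standing for GGAATG on the opposite strand. These sites are at chr13:21061560-21061589 for LATS2, chr3:134374499-134374528 for AMOTL2, chr14:22976884-22976913 for AJUBA, all on the minus strand, and at chr19:41226531-41226560 on the plus strand for AXL.

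LATS2: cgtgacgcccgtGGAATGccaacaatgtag
AMOTL2: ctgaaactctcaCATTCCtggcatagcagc
AJUBA: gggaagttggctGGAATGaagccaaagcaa
AXL: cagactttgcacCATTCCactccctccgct

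The LATS2 match lies 9 bases after the first base of the gene, the AMOTL2 match 69, the AJUBA match 59 and the AXL match 212 bases before a start. For AMOTL2, AJUBA and AXL it was in the window of the more downstream of 2 annotated starts, and which start the cells used was not determined. The windows of SAV1 and AMOTL1 did not hold these letters. A loose form of the AP-1 motif, TGANTCA with N as any base, was searched on both strands. It was found in 1 of the 11 windows, against 7.71% of all windows. That match, in ANKRD1 at 195 bases before the start, was clear of both GGAATG matches. It reads TGATTCA, which fits only because N admits any base, and it is not called an AP-1 site here. A match is a description of the letters and not a measured binding site.

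Values are probe intensities on a linear scale, background-subtracted before deposit, so that a probe without signal reads near or below 0. A gene was counted as expressed when its brightest probe, by mean intensity, exceeded the median of all probes in either culture. That median, called the floor, was 12.4 on both arrays, and bright meant above the 75th percentile, 81.3. A dimmer probe above the floor did not make a gene count as expressed, as for COL1A2 and LYZ. Each difference is the HCT-8/V value less the HCT-8 value on the log2 scale, after raising lower values to the floor, and where several probes existed the brightest stood for the gene. A fold with only 1 array above the floor is a bound and is written "at least". Probes with a mean below 0 differed between the arrays with an SD of 10.7 intensity units, which is the scale of noise for a dim probe. For genes with 2 bright probes, the spread between their differences gave an SD of 0.28 log2 units per probe (1535 genes). Both are technical spreads within these arrays and say nothing of how much cultures of 1 line vary. No p-value can be given with 1 array per line.

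TWIST1 read 163 in HCT-8 against 185 in HCT-8/V on its single probe. The labels name the plasmid only as pcDNA3.1-Twist, and whether this probe detects its transcript was not determined. Of 11 colon epithelial markers 5 were above the floor, with KRT8 at 2199 and 2283 and EPCAM at 117 and 80.0. The defining intestinal genes CDX1, CDX2, VIL1, LGALS4 and KRT20 and the E-cadherin gene CDH1 were below the floor on both arrays. Of 8 fibroblast markers 6 were expressed, with summed intensities of 942 and 1248. Most of that sum was DCN, at 625 and 854, followed by PDGFRB at 149 and 218. For leukocytes 1 of 4 measured markers was expressed (sums of 35.6 and 42.4), and for endothelium 2 of 4 (20.8 and 29.4). Among all 20046 named genes 13763 were expressed, which is the background for these counts. Of the endothelial pair, PECAM1 read 34.2 and 14.5, and VWF -13.4 and 14.9. PTPRC, CDH5 and KDR were below the floor on both arrays, and the part of other cell types in the values below was not tested.

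All 10 genes passed the floor on at least 1 array, 9 of them on both, and 7 were bright on at least 1. Of all 20046 named genes, 13763 passed it on at least 1 array, 11356 on both, and 8009 were bright on at least 1. The 10 were chosen with their readings known, so nothing is read from these counts. In HCT-8/V, 3 of the 10 read higher and 7 lower. The lower ones include AMOTL1 and ANKRD1, whose readings lay near the floor and whose directions are uncertain. Of all expressed genes 52.8% were higher and 47.1% lower, which is the background for every count of directions below. AMOTL2 and LATS2 were at least 2-fold higher, as were 4.24% of all 13763 expressed genes. CCN1 and SAV1 were at least 2-fold lower, as were 3.77% of expressed genes. Since these differences were known when the genes were chosen, nothing is read from the comparison with those shares. The same holds for the shares and ranks given for single genes below. At 1.5-fold the counts were 3 higher and 5 lower, AMOTL1 and ANKRD1 among the 5, beside 12.8% and 11.2% of expressed genes, and at 3-fold both were 0, beside 0.618% and 0.538%. Large differences were mostly a matter of dim genes: 16.9% of expressed genes with a mean intensity below 81.3 differed by 2-fold or more, against 1.51% of those from there to 500 and 0.239% of those at 500 or more.

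**Figure D1:**
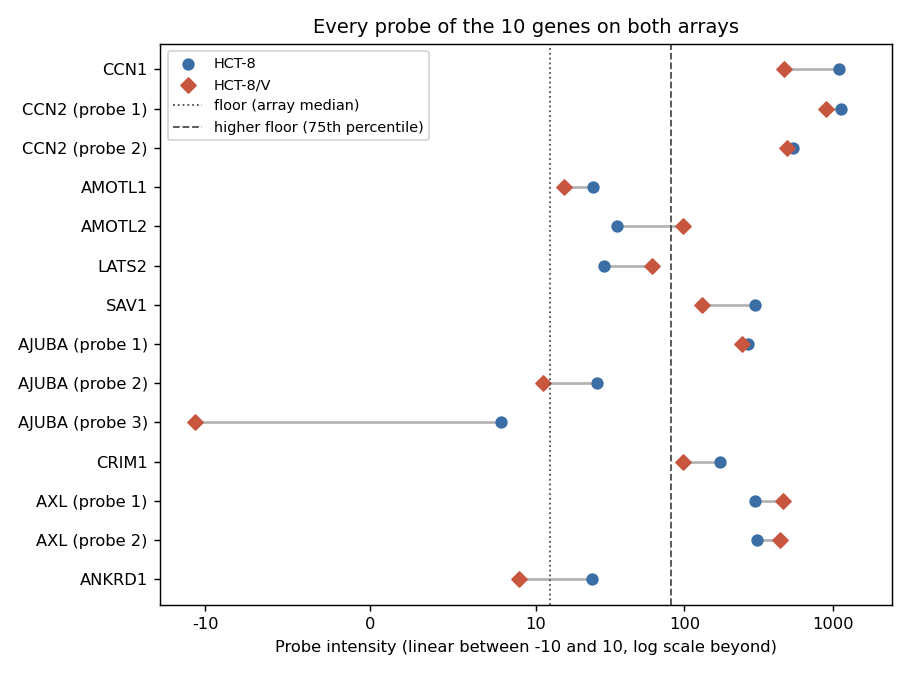
Intensity of each of the 14 probes of the 10 genes in HCT-8 (blue circles) and HCT-8/V (red diamonds), 1 array each, on an axis that is linear between -10 and 10 and logarithmic beyond, with the floor of 12.4 dotted and the higher floor of 81.3 dashed. AMOTL2, LATS2 and both AXL probes have the red symbol to the right, and all other probes have it to the left.

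CCN1, formerly CYR61, is a secreted protein of the matrix that signals through integrins and is among the most used readouts of YAP activity. Its single probe read 1093 in HCT-8 against 469 in HCT-8/V, 2.33-fold lower (log2 -1.22). Both readings were far above the higher floor. Of the 2928 genes with a mean intensity of 500 or more, 5 (0.171%) were at least 2-fold lower, and CCN1 was the one with the largest size among them. CCN1 was chosen with this difference known, so its rank is a description only.

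CCN2, formerly CTGF, is a matrix protein of the same family that is also a standard YAP target, and its promoter carries the 3 GGAATG matches printed above. Its brighter probe read 1134 in HCT-8 against 898 in HCT-8/V, 1.26-fold lower (log2 -0.34). The second probe read 535 and 487, 1.10-fold lower (log2 -0.14). Both probes were lower in HCT-8/V, the first by slightly more and the second by less than the SD of 0.28 between probes of a gene. Genes with a mean intensity of 500 or more had an SD of 0.29 log2 units across genes.

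The remaining CCN genes went both ways. CCN5, which lacks the C-terminal domain of its relatives, read 675 in HCT-8 against 881 in HCT-8/V (1.31-fold higher). CCN3, a growth-restraining member, read 102 and 117. CCN4, a Wnt-induced member, and CCN6 lay at the floor, at 10.5 and 13.2 for CCN4 and at 17.0 and 5.64 for CCN6. Counting all 6, 3 were higher and 3 lower, with a median log2 difference of -0.13, against 0.03 over all expressed genes.

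SAV1 is the scaffold that joins the kinases STK3 and STK4 to their substrates. Its single probe read 298 in HCT-8 against 131 in HCT-8/V, 2.27-fold lower (log2 -1.18). Both readings were above the higher floor, and 0.670% of the 4774 genes with a mean intensity from 81.3 to 500 were at least 2-fold lower.

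LATS2, the kinase that phosphorylates YAP, went the other way, from 28.6 in HCT-8 to 60.1 in HCT-8/V (2.10-fold higher, log2 1.07). Neither array was above the higher floor for it, and the gap was 31.5 intensity units, beside the SD of 10.7 of probes without signal. Its relative LATS1 passed the floor only in HCT-8, at 16.5 against 0.397.

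In the remaining kinase core differences were small, and STK4 was the one bright gene past the SD of 0.28 between probes of a gene. STK4 read 1636 in HCT-8 against 1281 in HCT-8/V (1.28-fold lower, log2 -0.35), STK3 read 317 and 302, and MOB1B, an adaptor of the LATS kinases, read 49.8 and 39.7. The other adaptor, MOB1A, read 316 and 326 on its brighter probe and 134 and 115 on the second, in opposite directions. Leaving out SAV1 and LATS2, 1 of the 5 core genes was higher and 4 lower, with a median of -0.33, which is the value of the dim MOB1B. Among the bright genes of these, 1 was higher and 2 lower, with a median of -0.07. None of the 4 core genes that passed the floor on both arrays differed by 2-fold, and for LATS1 the fold of at least 1.33 is a bound. SAV1 and LATS2 were measured past 2-fold, in opposite directions.

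AMOTL2, an angiomotin family protein that holds YAP at cell junctions, had the largest size of the 10. Its probe read 35.4 in HCT-8 against 97.3 in HCT-8/V, 2.75-fold higher (log2 1.46). Only the HCT-8/V reading passed the higher floor, and the gap was 61.9 intensity units. Of the 6061 expressed genes with a mean below 81.3, 8.93% were at least 2-fold higher.

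AMOTL1, of the same family, read 24.3 in HCT-8 against 15.6 in HCT-8/V (1.56-fold lower), a gap of 8.74 units that is smaller than the SD of probes without signal. AMOT, the founding member, passed the floor only in HCT-8, at 20.7 against 0.424. AMOTL2 was thus the single angiomotin gene with a reading above the higher floor.

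AJUBA is a LIM-domain protein that binds SAV1 and LATS kinases and holds them inactive at junctions under tension. Its brightest probe read 266 in HCT-8 against 242 in HCT-8/V (1.10-fold lower). The second probe, annotated to the same transcript, read 25.8 and 11.1, at least 2.08-fold lower, and the third, annotated to a different transcript, was below the floor on both arrays at 7.90 and -11.7. All 3 probes were lower in HCT-8/V, but the bright probe differed by less than the noise SD of a probe and the other pair lay at the floor.

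Of 23 listed upstream regulators, a list put together with earlier results of these data known, 22 were measured and 18 expressed, 9 higher and 9 lower, with a median of -0.03. After AMOTL2, the bright ones with the largest sizes were TAOK1, a kinase that activates STK3 and STK4, at 104 in HCT-8 against 81.2 in HCT-8/V (1.28-fold lower), PTPN14, a phosphatase that retains YAP in the cytoplasm, at 549 and 452 (1.21-fold lower), and WWC1, the scaffold KIBRA, at 302 and 340 (1.12-fold higher). Among dim regulators named after their values were seen, WTIP, a LIM-domain relative of AJUBA, was the one at least 2-fold lower, at 31.7 and 15.8 (2.01-fold), and its second probe read 19.8 and 8.74. The tumour suppressor NF2 passed the floor only in HCT-8/V, at 23.0 against -0.308 in HCT-8 on its brightest probe, and its other 3 probes were below the floor on both arrays.

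**Figure D2:**
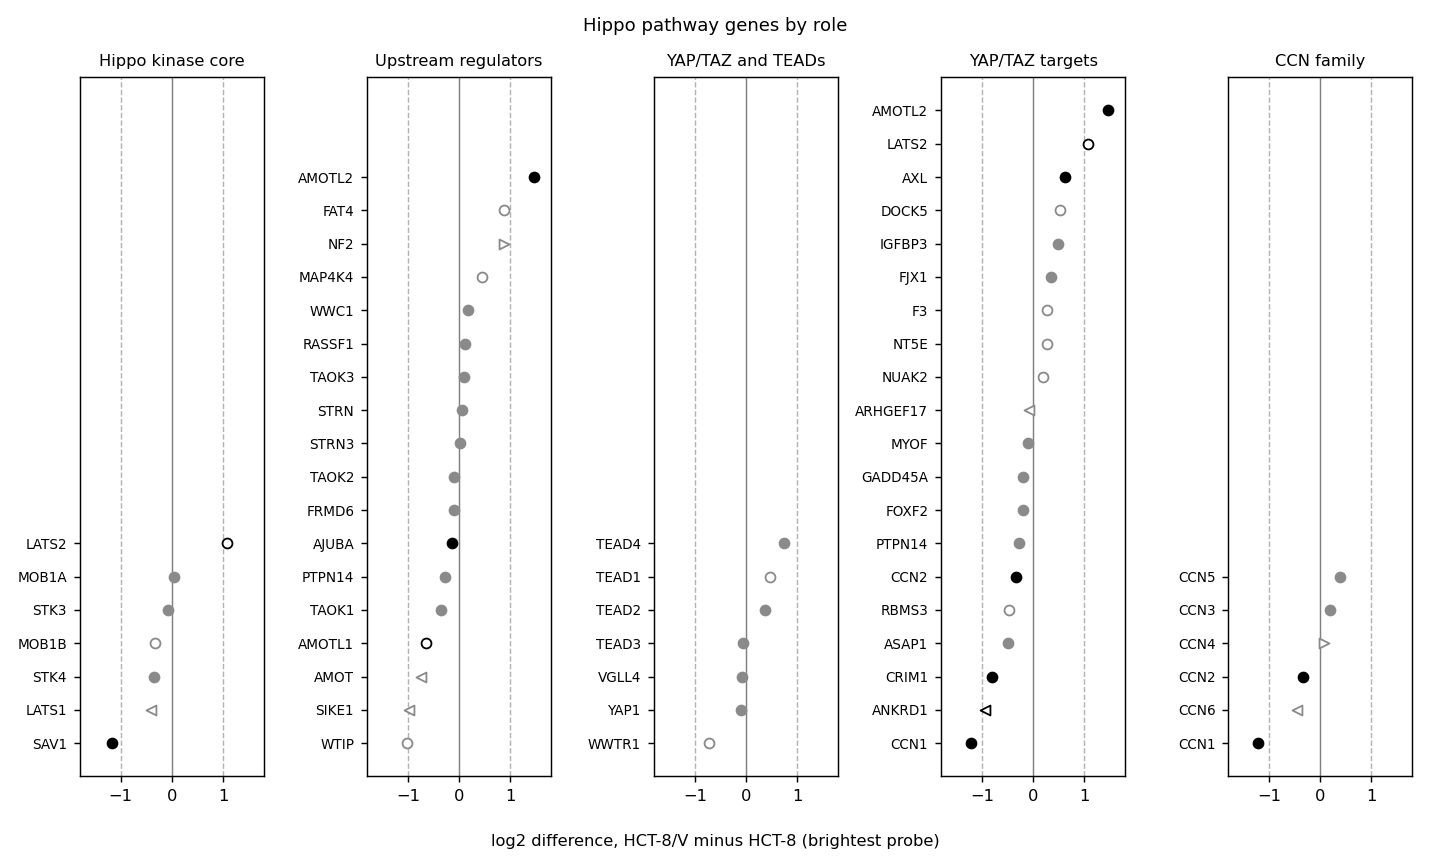
Log2 difference, HCT-8/V minus HCT-8, of every expressed gene in 5 lists ordered by role, with the 10 genes in black and others in grey. Filled symbols are genes above 81.3 on at least 1 array, open symbols are dimmer genes, triangles are bounds with 1 array above the floor, and dashed lines mark 2-fold. SAV1 and LATS2 stand at opposite ends of the kinase core, and CCN1 and AMOTL2 at opposite ends of the targets.

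The effectors themselves were measured on the same arrays. YAP1 read 1089 in HCT-8 against 1017 in HCT-8/V, 1.07-fold lower (log2 -0.10), which is within the noise of a probe. WWTR1, which encodes TAZ, was dim and read 65.4 and 39.8 (1.64-fold lower). Intensities report RNA and do not show where the YAP protein was or whether it was phosphorylated.

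Among the TEAD genes, TEAD4 had the largest size, at 173 in HCT-8 against 286 in HCT-8/V (1.66-fold higher, log2 0.73). Its other probes read 21.6 and 47.8 (2.21-fold higher), and 23.3 and 29.7, so that all 3 were higher in HCT-8/V. TEAD2 read 603 and 784 (1.30-fold higher), TEAD3 read 115 and 111, and TEAD1 was dim at 19.2 and 26.4. VGLL4, which competes with YAP for TEAD, read 397 and 375. Of the 4 TEAD genes, 3 were thus higher and 1 lower on the brightest probe. Together with YAP1, WWTR1 and VGLL4, 3 of 7 genes were higher and 4 lower, with a median of -0.05. On the brightest probe none differed by 2-fold.

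CRIM1, a membrane protein that binds bone morphogenetic proteins, read 172 in HCT-8 against 98.2 in HCT-8/V on its single probe, 1.76-fold lower (log2 -0.81). Both readings were above the higher floor. Expressed genes with a mean intensity from 81.3 to 500 had an SD of 0.40 log2 units across genes.

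AXL is a receptor tyrosine kinase that is activated by the secreted protein GAS6 and is linked to drug tolerance in several cancers. Its first probe read 299 in HCT-8 against 460 in HCT-8/V, 1.54-fold higher (log2 0.62). The second probe read 309 and 436, 1.41-fold higher (log2 0.50). The probes differed from each other by less than the noise SD of a probe, and both were higher in HCT-8/V.

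GAS6, the ligand of AXL, was also higher on its 2 bright probes, at 352 in HCT-8 against 474 in HCT-8/V (1.34-fold) and at 324 and 419 (1.29-fold). Of its dim probes, 1 lay at the floor, at 18.1 and -3.24, and the other was below it on both arrays. The related receptor TYRO3 read 459 and 435, MERTK was below the floor on both arrays, and the ligand PROS1 read 228 and 173 (1.31-fold lower). Among the 4 expressed genes of this receptor and ligand list, 2 were higher and 2 lower.

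ANKRD1, a muscle-enriched cofactor widely used as a YAP target, was at the limit of the arrays. Its probe read 23.8 in HCT-8 against 9.02 in HCT-8/V, the latter below the floor. Set against the floor, the HCT-8/V value was lower by at least 1.92-fold. The gap of 14.8 units is 1 to 2 times the SD of probes without signal, so this direction is uncertain.

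**Figure D3:**
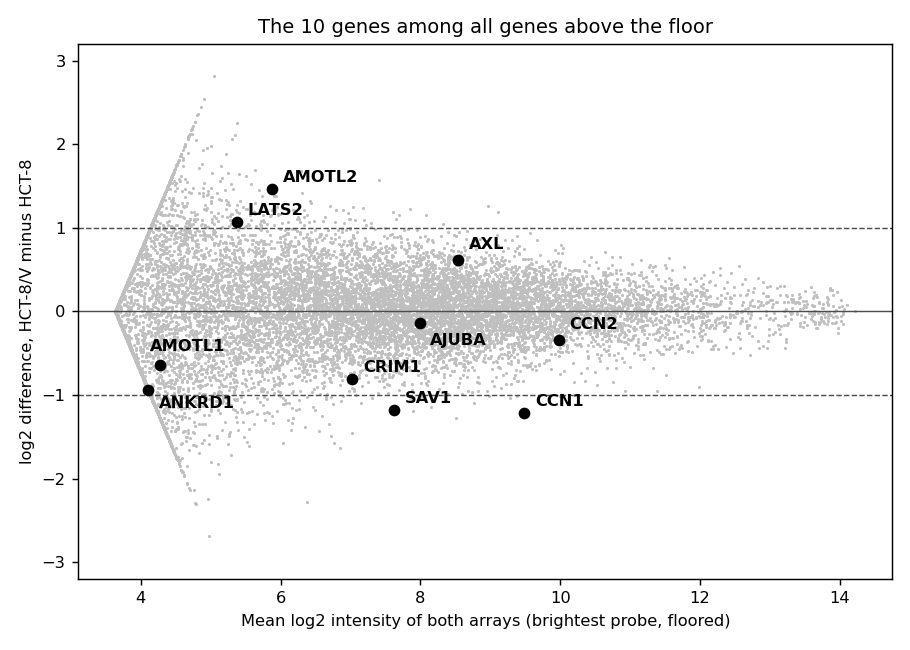
Log2 difference, HCT-8/V minus HCT-8, against mean log2 intensity of both arrays for the 13763 expressed genes (grey), with the 10 genes in black and dashed lines at 2-fold. The cloud narrows with level: CCN1 and SAV1 lie at its lower edge, whereas AMOTL2, LATS2, AMOTL1 and ANKRD1 lie where the cloud is wide, and the slanted left edges are genes with 1 array at the floor.

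A published set of 22 YAP and TAZ targets, written from background knowledge, includes 7 of the 10 genes. All 22 were measured and 20 expressed, 9 higher and 11 lower in HCT-8/V, with a median of -0.09. Leaving out the 7, 13 of 15 were expressed, 6 higher and 7 lower, with a median of -0.08 and no difference of 2-fold on the brightest probe. Above the higher floor 2 of them were higher and 5 lower, with a median of -0.19. Among all expressed genes 7272 were higher and 6481 lower, and above the higher floor 4282 and 3718. Whether the targets differ from genes at large was not tested.

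Among those other targets, examples chosen after their values were seen are ASAP1, FOXF2, IGFBP3 and MYOF. ASAP1, a regulator of ARF GTPases, read 725 in HCT-8 against 516 in HCT-8/V (1.41-fold lower), and its other 2 probes were 1.22-fold and 1.15-fold lower. The forkhead factor gene FOXF2 read 775 and 673. IGFBP3, which binds insulin-like growth factors, read 168 and 234 (1.40-fold higher), and its second probe read 35.2 and 85.4 (2.43-fold higher, log2 1.28), so the size depended on the probe. MYOF, a membrane repair gene, read 1822 and 1701, with its other probes 1.03-fold and 1.02-fold lower. Targets thus differed in both directions.

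Of the genes in the Hippo, target and CCN lists, 17 had 2 or more probes above the floor, and in 11 of them (64.7%) all such probes went one way. The share was 48.5% among all 3785 genes with several such probes. Of the 10 genes described here, CCN2, AXL and AJUBA had such probes, and all 3 were uniform in direction. They are among the 11 and were chosen with their differences known, so nothing is read from the contrast with 48.5%. The second AJUBA probe passed the floor only in HCT-8. CCN1, SAV1, LATS2, AMOTL1, AMOTL2, CRIM1 and ANKRD1 each rest on 1 probe.

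**Figure D4:**
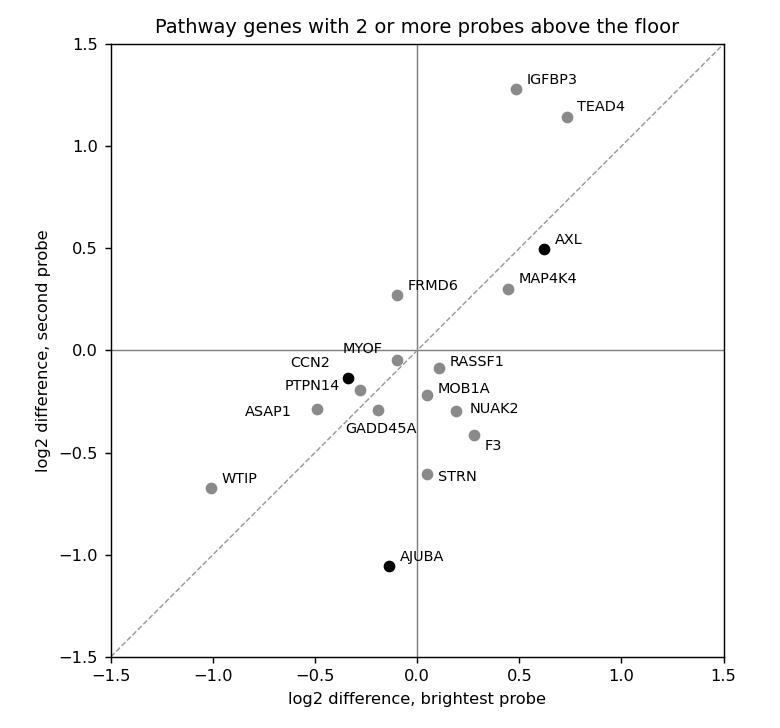
Log2 difference, HCT-8/V minus HCT-8, of the second probe against that of the brightest probe for the 17 pathway genes with 2 or more probes above the floor, with members of the 10 in black and a dashed line of equality. AXL, TEAD4, IGFBP3 and MAP4K4 lie in the upper right, CCN2, ASAP1, PTPN14 and AJUBA among those in the lower left, and F3, NUAK2 and STRN are higher on 1 probe and lower on the second.

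CCN1 and CCN2 act on cells through integrins and associated receptors, of which 11 were listed and 10 expressed, 5 higher and 5 lower with a median of 0.01. LRP1, an endocytic receptor of CCN2, read 87.2 in HCT-8 against 37.6 in HCT-8/V (2.32-fold lower), the second value under the higher floor. ITGAV, the alpha subunit shared by several CCN1-binding integrins, read 724 and 389 (1.86-fold lower) on its single probe. ITGA5 read 286 and 449 (1.57-fold higher) and ITGB2 94.5 and 150 (1.59-fold higher), with its second probe at 76.5 and 118. ITGB1 read 4249 and 4162 on its brightest probe and 1335 and 767 on the next, so the size depended on the probe.

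CCN1 and CCN2 are also targets of serum response factor, whose coactivators respond to actin. Of 16 listed genes of this route 15 were measured and 14 expressed, 5 higher and 9 lower, with a median of -0.23. FOS, an immediate-early gene, read 307 in HCT-8 against 213 in HCT-8/V (1.44-fold lower). Of the other immediate-early genes of the list, the dim FOSB went the opposite way, at 31.8 and 78.2 (2.46-fold higher). EGR1 read 102 and 112 (1.11-fold higher, log2 0.15), less than the SD of 0.28 between probes of a gene. CALD1, an actin-binding gene, read 2332 and 1855 (1.26-fold lower), with both its other probes also lower. SRF itself read 262 and 329 (1.26-fold higher). TPM2, a tropomyosin gene, read 1604 and 2011 on its brightest probe but 1522 and 1213 on the next, in opposite directions. FOSB, below the higher floor on both arrays and named after its values were seen, was the one gene of this list past 2-fold.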

How the data were processed

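Total RNA from 2 cultures was labelled as biotin cRNA and hybridised to Illumina arrays, per the labels' protocols. The deposited table holds 1 intensity per probe and array for 47323 probes. The authors' background correction and scaling are not given in the sources used here. Judged by their distribution, the intensities were background-subtracted and matched in distribution, so a shift of most genes would not be seen. Gene names came from the platform annotation, updated by Entrez ID to RefSeq GRCh38.p14 for 30074 of 30113 probes with 1 symbol, and 39 kept the old name. The 17210 probes without a single symbol were left out.

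Intensities were floored at the array median (the higher floor is the 75th percentile), taken to log2 and subtracted, with the brightest probe by mean intensity per gene. With 1 array per line there is no replicate check, no test and no p-value, and the number of arrays limits the precision. The members and the 12 gene lists were chosen with earlier results of these data known. Genes named are the 10 members, all genes of the kinase core, TEAD and CCN lists, and the 4 bright genes with the largest size in each other pathway list; a few others are named as context or as said in the text. Likeness of pattern over 2 arrays was not computed. Alternatives changed the probe, floor, scaling (quantile, median centring, loess with span 0.3) and fold threshold (1.5 and 3). Python 3.11.15, pandas 2.3.3 and statsmodels 0.14.6 were used, and the scripts were tested on simulated data.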

Additional observations from a re-analysis of the deposited data

How the results depend on the processing

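A moved value is one that shifted by more than the SD of log2 differences among genes of the same brightness range, or a count that changed by over 1.5 times. All 60 values of the 10 genes under alternatives kept their direction, which for the 7 genes with 1 probe only rescales the same pair of readings, and 58 stayed within that SD. With the floor at the 75th percentile AMOTL2 shrank to a log2 difference of at least 0.26, by construction of that floor, and AMOTL1, LATS2 and ANKRD1 had no value. The second probe of AJUBA gave a log2 difference of -1.06 or lower. With no floor (log2 of the intensity plus 46) LATS2 was 0.51, AMOTL2 0.82 and SAV1 -0.95, and CCN1 stayed at -1.14. AMOTL1 shrank from -0.64 to -0.19 and ANKRD1 from a bound of -0.94 to -0.34. Both count as within the SD, which was 0.72 for genes this dim. Scaling by median, quantile or loess moved no member by more than 0.070. The deposited intensities were already matched in distribution, so this outcome was largely fixed in advance and does not check the authors' scaling. The number of members at least 2-fold higher was 2, and 0 at the higher floor, with no floor or at 3-fold. The number lower was 2, and 1 with no floor, 5 at 1.5-fold and 0 at 3-fold. Second probes exist for only 3 members, CCN2, AJUBA and AXL, so their counts of 0 higher and 1 lower (AJUBA) do not bear on AMOTL2, LATS2, CCN1 or SAV1. Over all genes, 583 were higher and 519 lower; with the mean of all probes 375 and 329, with second probes 136 and 211, at the higher floor 24 and 25, with no floor 38 and 37, at 1.5-fold 1760 and 1546, and at 3-fold 85 and 74. Of 34 list medians 32 stayed within the SD of their members. That SD is a spread across single genes and wide for a median, so this count does not show stable medians. With the mean of all probes the AXL family list went from 0.18 to -0.0062 and the fibroblast list from 0.50 to 0.14. At the higher floor the CCN receptor list went from 0.0097 to -0.10 and the upstream regulators from -0.033 to 0.027. The leukocyte list, with 1 expressed gene at 0.25, was 0.032 with the mean of all probes and 0 over all measured genes. No paired analysis was possible because each line has 1 array. For the same reason no replicate could be left out.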
